A study of Homo sapiens with 6 samples.

Results

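Amino acids cross the membranes of human cells through carrier proteins that are named as solute carriers (SLC), and 7 families of these carriers were examined here. The genes were chosen by symbol alone, as every entry of the deposited gene tables whose name is SLC1A, SLC3A, SLC6A, SLC7A, SLC36A, SLC38A or SLC43A followed by a number. This gave 59 genes out of 23228. The rule used no measured value, but the families were chosen with earlier results of these data known. The shares called below are therefore not a blind comparison. The rule also takes in relatives whose main cargo is not an amino acid. Among these are SLC6A4, the serotonin transporter, SLC6A8, the creatine transporter, and SLC43A3, which carries purine nucleobases.

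RNA was sequenced from Hep3B, an established human hepatocellular carcinoma line grown in RPMI medium, in 3 control libraries and 3 libraries labelled PELP1-KD. Control cells had been infected with lentivirus carrying a non-targeting shRNA, a short hairpin RNA that directs the breakdown of a matching mRNA. The PELP1-KD cells carried lentivirus with an shRNA against PELP1, a coregulator of nuclear receptors that is also part of a ribosome assembly complex, and they were pools of stable clones selected with puromycin. The titles of the PELP1-KD samples name the first of 2 PELP1 shRNAs, while the protocol attached to them names both. No label says that replicates were separate cultures, so the p-values measure the spread between these libraries, which may be technical.

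The libraries held 26758363 to 34456542 reads on genes, and the transporter genes took between 0.280% and 0.292% of them. For PELP1 itself, normalized reads, which are reads scaled to a common library size, came to 4893, 4914 and 5102 in control and to 4421, 4825 and 4840 in PELP1-KD. The groups did not overlap, but the level was 94.5% of control and the difference missed the threshold (log2 fold change -0.08, SE 0.04, adjusted p = 0.101). It passed with the replicate number as a block (adjusted p = 0.0106). The label "PELP1-KD" is therefore used below as the name of the libraries and not as a measure of PELP1 RNA. The paper reported lower PELP1 protein by Western blot in Hep3B cells carrying PELP1 shRNA, and read counts do not measure protein. All 13 hepatocyte markers examined were detected, and 5 of them were higher and 7 lower in PELP1-KD. Among the markers of other cell types, CDH5, SFTPC and CHGA had 0 reads in every library, and 4 were abundant enough to test, among which PDGFRB (log2 fold change -2.13) and CD14 (-0.98) were lower and CD68 (0.48) was higher. Whether these had a part in the transporter values was not tested.

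A cell takes up essential amino acids, exchanges one amino acid for another across its surface, and moves them in and out of lysosomes, and separate SLC families serve these tasks. Exchangers of the SLC7 family swap neutral or cationic amino acids and mostly need a partner, a heavy chain of the SLC3 family, to reach the membrane. Carriers of the SLC1, SLC6 and SLC38 families draw on the sodium gradient to concentrate glutamate, glutamine and other neutral amino acids, and the hepatocyte is known for its handling of glutamine, cationic amino acids and ammonia.

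Of the 59 genes, 41 had enough reads to be tested. Among the rest, 10 had 0 reads in every library and 8 had at most 7 reads in any of them. A total of 15 transporter genes were higher and 15 were lower in PELP1-KD at an adjusted p below 0.05 (edgeR's quasi-likelihood test, Benjamini-Hochberg adjustment over all 14537 tested genes), and 11 were not called. The called share was 73.2% of the transporter genes, where 53.6% of all tested genes were called, with 26.8% higher and 26.8% lower. The groups did not overlap for 30 of the 41 transporter genes and for 58.8% of all tested genes. At a change of at least 2-fold, 2 transporter genes were higher (SLC7A8 and SLC1A3) and 5 lower (SLC7A1, SLC6A19, SLC3A1, SLC43A3 and SLC38A3), or 7 of 41. Of all tested genes, 7.65% passed both thresholds, 2.85% as higher and 4.79% as lower. The median log2 fold change was -0.08 for the transporter genes and 0.0044 for all tested genes, and the median size of the change without its sign was 0.30 against 0.20. A bulk library gives an average over its cells, so fewer cells with a carrier and less RNA of it per cell cannot be told apart.

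**Figure D1:**
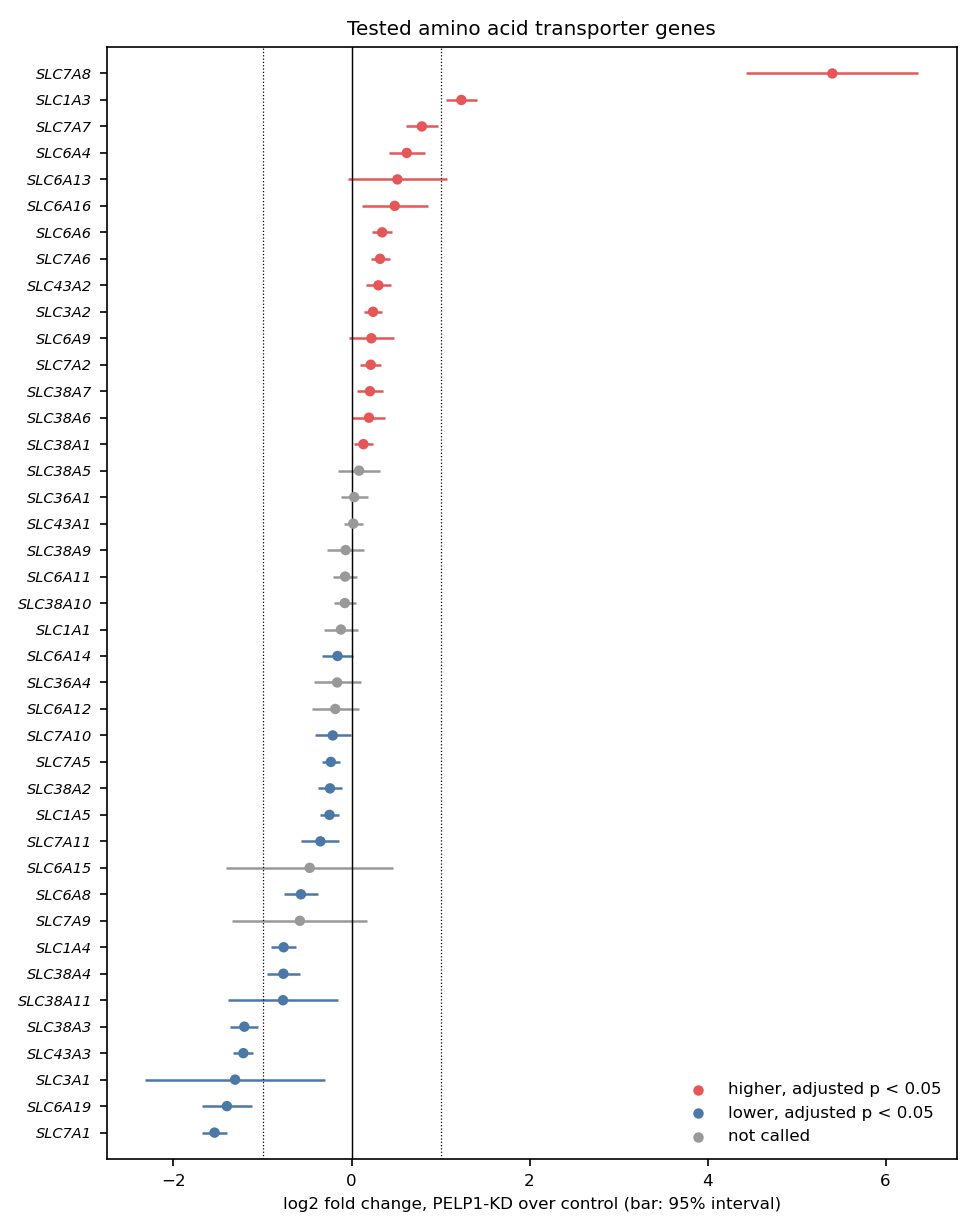
Log2 fold change of each of the 41 tested transporter genes in PELP1-KD over control (point) with its 95% interval (bar). Red genes were higher and blue genes lower at an adjusted p below 0.05, grey genes were not called, and dotted lines mark a 2-fold change. The bars use 4 degrees of freedom and include 0 for the called genes SLC6A9, SLC6A13 and SLC6A14. SLC7A8 (5.40) stands far to the right of all others, and the 5 genes past the left dotted line lie between -1.54 and -1.20.

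SLC7A8 showed the largest change of the transporter genes. It encodes LAT2, an exchanger of small and large neutral amino acids, and lies at chr14:23594504-23652849 of hg19 on the minus strand. Its reads numbered 2, 0 and 9 in control and 168, 124 and 137 in PELP1-KD. It was thus close to 0 in each control library and present in each PELP1-KD library, and it passed the filter on low counts only through the PELP1-KD group. The log2 fold change was 5.40 (SE 0.35, adjusted p = 1.66e-10), and it ranged from 4.84 to 7.16 with 1 library left out. From the 11 and 429 reads of the groups, the ratio was 43.8, with a 95% interval of 24.2 to 88.4 that covers counting error only. The level reached in PELP1-KD was 1.10 ± 0.135 RPKM (reads per 1000 bases of exon and 1000000 reads, SD, n = 3), below that of every other light chain of SLC3A2.

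SLC7A1, the main carrier of arginine and lysine in dividing cells (CAT-1, chr13:30083551-30169825 of hg19, minus strand), fell. It had 1752, 1707 and 1790 normalized reads in control and 619, 600 and 587 in PELP1-KD. The groups lay far apart, at a 2.91-fold lower level in PELP1-KD (log2 fold change -1.54, SE 0.05, adjusted p = 4.34e-15). SLC7A2, the related cationic carrier of the liver (CAT-2), moved the other way, from 41.9 ± 1.43 to 48.6 ± 3.17 RPKM (log2 fold change 0.22, SE 0.04, adjusted p = 0.000216). Its normalized reads were 10386, 10662 and 9960 in control and 12479, 12437 and 11103 in PELP1-KD, without overlap. SLC7A2 was the more abundant of the pair per length in every library, and the fall of SLC7A1 was from 7.58 to 2.61 RPKM.

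SLC3A2 (4F2hc or CD98) is the heavy chain with which 6 of the light chains tested here pair, and over all 6 libraries it had the highest mean RPKM of the 59 genes, though in control SLC7A5 and SLC43A1 lay above it. It was measured at 76.7, 75.8 and 75.7 RPKM in control and at 87.1, 88.7 and 94.0 RPKM in PELP1-KD. Every PELP1-KD library was above every control library, and the log2 fold change was 0.24 (SE 0.04, adjusted p = 1.20e-05). All 6 of its light chains were called, 3 higher (SLC7A6, SLC7A7 and SLC7A8) and 3 lower (SLC7A5, SLC7A10 and SLC7A11). Beside them, 73.2% of the tested transporter genes and 53.6% of all tested genes were called.

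SLC7A5, or LAT1, which brings leucine and other large neutral amino acids into growing cells, was the most abundant light chain. It had 11769, 11830 and 12799 normalized reads in control and 10067, 10346 and 10581 in PELP1-KD, so it was 1.17-fold lower without overlap (log2 fold change -0.23, SE 0.04, adjusted p = 2.48e-05). SLC7A7, the y+LAT1 exchanger whose loss causes lysinuric protein intolerance, had 542, 481 and 496 in control and 866, 909 and 855 in PELP1-KD. This was a rise of 1.73-fold (log2 fold change 0.79, SE 0.06, adjusted p = 2.91e-09). SLC7A6, its relative y+LAT2, rose from 3272, 3348 and 3195 to 4137, 4063 and 4057 normalized reads, again without overlap (log2 fold change 0.32, SE 0.04, adjusted p = 7.06e-07). The remaining light chains were lower in every PELP1-KD library than in any control library. SLC7A11, the xCT exchanger that imports cystine, fell from 690, 722 and 657 normalized reads to 576, 581 and 469 (log2 fold change -0.35, SE 0.08, adjusted p = 0.000767). SLC7A10, the Asc-1 carrier of small neutral amino acids and D-serine, fell from 472, 458 and 501 to 401, 438 and 400 (log2 fold change -0.21, SE 0.07, adjusted p = 0.0199). The call of SLC7A10 was lost when control replicate 3 or PELP1-KD replicate 1 was left out (adjusted p = 0.0894 and 0.0580) and in DESeq2 (adjusted p = 0.0602).

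The summed level of the 6 light chains was 115, 115 and 122 RPKM in control and 111, 114 and 114 RPKM in PELP1-KD. The light chains thus amounted to 1.54 ± 0.0580 times SLC3A2 in control and 1.25 ± 0.0408 times in PELP1-KD (SD, n = 3). Their make-up differed too: SLC7A5 held 72.4% ± 1.05 of the light chain RPKM in control and 64.2% ± 0.966 in PELP1-KD, while SLC7A7 held 5.06% ± 0.397 and 9.11% ± 0.277 and SLC7A6 held 14.0% ± 0.750 and 18.1% ± 0.430. SLC7A8 came to 0.980% ± 0.132 in PELP1-KD. None of these quantities overlapped between the groups, and each gave p = 0.1 in the two-sided exact permutation test over libraries, the smallest that 3 against 3 allows, with the same value after adjustment over the 11 quantities tested. The difference in the sum, -4.66 RPKM, was -2.42 RPKM without control replicate 3.

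**Figure D2:**
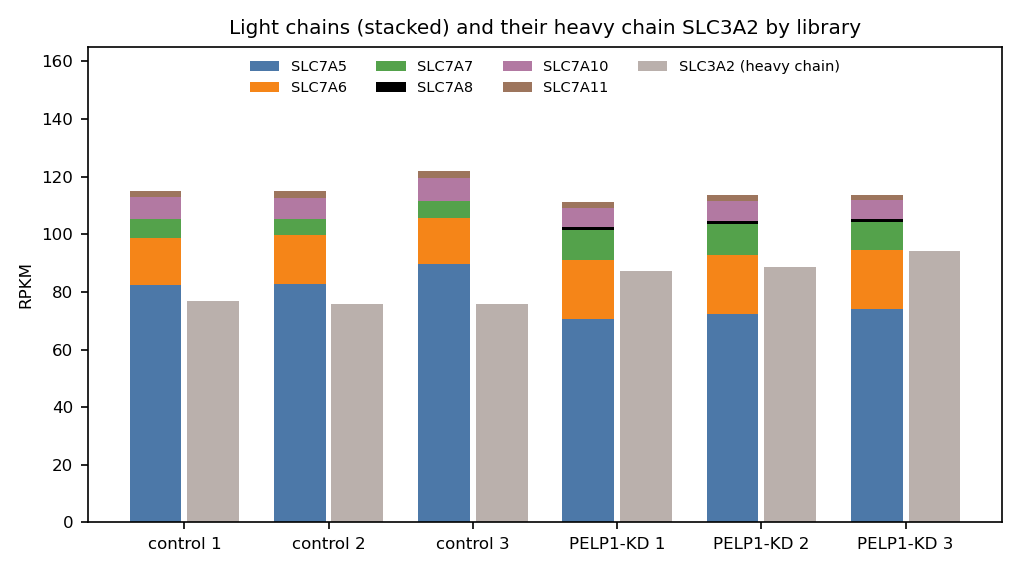
RPKM of the 6 light chains that pair with SLC3A2 (stacked, colours as in the key) and of SLC3A2 itself (grey) in each library. In control the stack exceeds the grey bar by a wider margin than in PELP1-KD, the blue SLC7A5 block is smaller in each PELP1-KD library, and the green SLC7A7 block is larger.

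The other heavy chain, SLC3A1 (rBAT), forms the cystine and dibasic amino acid exchanger of kidney and gut with SLC7A9, and both genes were scarce. SLC3A1 had 35, 53 and 21 reads in control and 19, 12 and 8 in PELP1-KD. The lowest control library was close to the highest PELP1-KD library, though the groups did not overlap once scaled (log2 fold change -1.31, SE 0.36, adjusted p = 0.00502). The ratio of the summed reads was 0.402, with a 95% counting interval of 0.271 to 0.584, and without control replicate 2 the log2 fold change was -0.92 (adjusted p = 0.0574). SLC7A9 stood at 0.527 ± 0.0788 RPKM in control and 0.349 ± 0.0844 in PELP1-KD and was not called (log2 fold change -0.58, 95% interval -1.34 to 0.18, adjusted p = 0.0815). SLC7A13, which also pairs with SLC3A1, had 0 reads throughout.

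**Figure D3:**
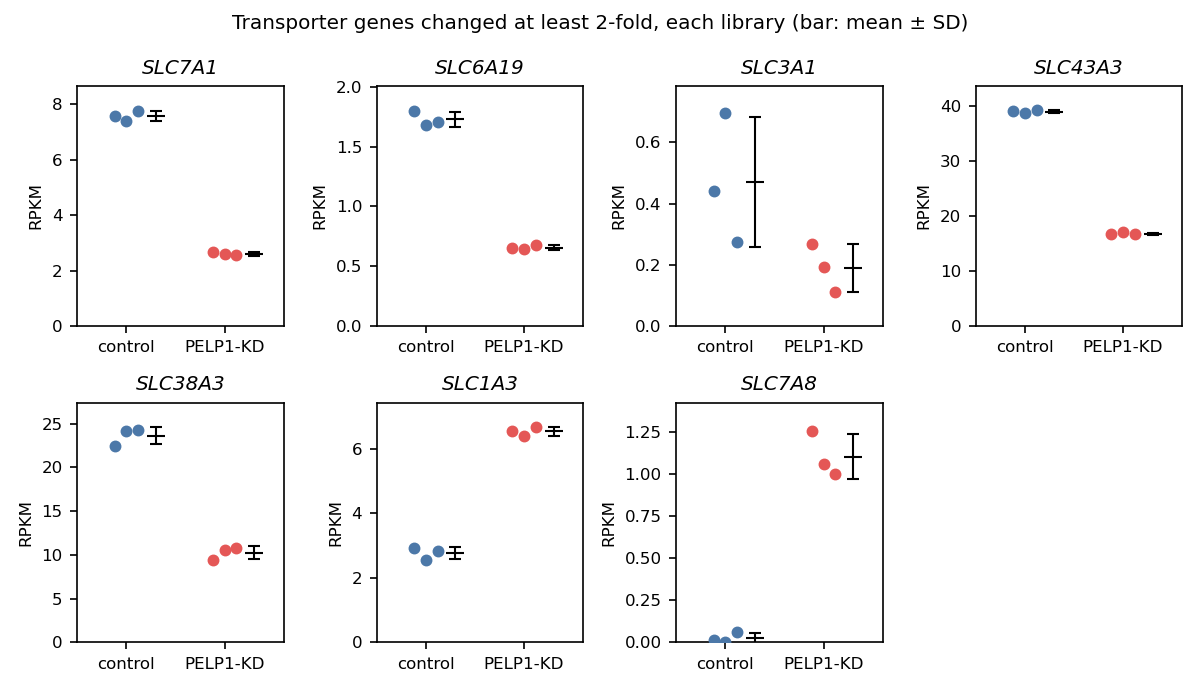
RPKM of the 7 transporter genes that passed both thresholds in each control (blue) and PELP1-KD (red) library, with the mean and SD of the 3 libraries beside the points and every axis starting at 0. The points of the groups lie far apart for 6 genes and close together for SLC3A1, whose control libraries spread over the widest relative range apart from the near-zero control values of SLC7A8.

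Among the SLC1 carriers, SLC1A3 rose and the neutral carriers SLC1A4 and SLC1A5 fell. SLC1A3 is the glutamate and aspartate transporter EAAT1 (chr5:36606457-36688436 of hg19, plus strand). Its normalized reads were 447, 393 and 435 in control and 1001, 978 and 1021 in PELP1-KD, at least 2-fold apart in each pairing of libraries (2.35-fold, log2 fold change 1.23, SE 0.06, adjusted p = 3.08e-12). SLC1A1, the related glutamate transporter EAAT3, was not called (log2 fold change -0.12, 95% interval -0.31 to 0.07). SLC1A5, or ASCT2, the exchanger through which many tumour cells take up glutamine, had 7251, 6880 and 7543 normalized reads in control and 5919, 6013 and 6327 in PELP1-KD. Its decrease was small but clear of the spread (log2 fold change -0.25, SE 0.04, adjusted p = 3.12e-05). SLC1A4, the exchanger ASCT1 for alanine, serine and cysteine, was 1.70-fold lower, at 8.95 ± 0.154 RPKM in control and 5.28 ± 0.110 in PELP1-KD (log2 fold change -0.76, SE 0.05, adjusted p = 1.48e-10).

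The 10 tested SLC38 genes, carriers of glutamine and other small neutral amino acids, split into 4 lower, 3 higher and 3 not called. SLC38A3 (SNAT3), which moves glutamine, histidine and asparagine across the hepatocyte membrane, fell most. It had 1733, 1861 and 1870 normalized reads in control and 729, 816 and 828 in PELP1-KD, with every PELP1-KD library below every control library (2.30-fold lower, log2 fold change -1.20, SE 0.06, adjusted p = 6.27e-13). SLC38A4 (SNAT4), a system A carrier found mainly in liver, fell from 5.97 ± 0.105 to 3.51 ± 0.258 RPKM (log2 fold change -0.77, SE 0.07, adjusted p = 1.12e-08). SLC38A11, for which no substrate is well established, was also lower, at under 1 RPKM in both groups (log2 fold change -0.77, SE 0.22, adjusted p = 0.00683). The 2 abundant system A carriers went opposite ways by small amounts. SLC38A2 (SNAT2), which cells induce when amino acids run short, fell from 7653, 7863 and 7162 to 6779, 6594 and 5814 normalized reads (log2 fold change -0.24, SE 0.05, adjusted p = 0.000424). SLC38A1 (SNAT1) had 9646, 9599 and 9226 in control and 10788, 10675 and 9774 in PELP1-KD (log2 fold change 0.13, SE 0.04, adjusted p = 0.00643), and its call was lost without PELP1-KD replicate 2 (adjusted p = 0.0525). SLC38A7, a carrier of glutamine and asparagine out of lysosomes (0.21), and SLC38A6 (0.20) were higher, the latter not in DESeq2 (adjusted p = 0.0704) nor without control replicate 1 (adjusted p = 0.0800). SLC38A10 was measured at 4192, 4215 and 4366 normalized reads in control and 3760, 4082 and 4283 in PELP1-KD, which overlap. It was not called (log2 fold change -0.08, adjusted p = 0.168) except with the replicate number as a block (adjusted p = 0.0257) and without PELP1-KD replicate 3 (adjusted p = 0.00912). SLC38A9, a lysosomal arginine sensor (log2 fold change -0.07, 95% interval -0.28 to 0.14), and SLC38A5 (0.08, -0.16 to 0.32) were not called.

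The proton-coupled SLC36 carriers, of which SLC36A1 sits on lysosomes, gave no call. SLC36A1 had a log2 fold change of 0.03 with a 95% interval of -0.12 to 0.18, and SLC36A4 one of -0.16 with an interval of -0.43 to 0.10. The 3 SLC43 genes gave 3 different outcomes. SLC43A3, the purine nucleobase carrier (chr11:57174427-57195053 of hg19, minus strand), fell from 3468, 3434 and 3487 to 1482, 1512 and 1481 normalized reads. Its replicates were tight, and the 2.32-fold lower level had a log2 fold change of -1.22 (SE 0.04, adjusted p = 4.14e-15). SLC43A1, the LAT3 carrier of large neutral amino acids, was the second most abundant of the 59 genes and had 6850, 6844 and 6789 normalized reads in control and 6560, 6996 and 7209 in PELP1-KD. These groups overlapped, and a change of more than 0.12 in either direction on the log2 scale lies outside the 95% interval (log2 fold change 0.02, interval -0.09 to 0.12). SLC43A2, the LAT4 carrier of the same substrates, rose from 11.0 ± 0.487 to 13.6 ± 0.377 RPKM (log2 fold change 0.30, SE 0.05, adjusted p = 5.88e-05).

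Of the 11 tested SLC6 genes, 5 were higher, 3 lower and 3 not called. SLC6A19 (B0AT1), the sodium-coupled carrier of neutral amino acids best known from gut and kidney (chr5:1201710-1225230 of hg19, plus strand), had 292, 273 and 278 normalized reads in control and 105, 104 and 110 in PELP1-KD. It was 2.64-fold lower (log2 fold change -1.40, SE 0.10, adjusted p = 4.72e-10). SLC6A8, the creatine transporter, was also lower (-0.57, SE 0.07, adjusted p = 9.92e-07). SLC6A14, a carrier of neutral and cationic amino acids, was called lower at -0.16 (adjusted p = 0.0388), but not in DESeq2 (adjusted p = 0.0588), not when scaled by total reads only (adjusted p = 0.0737) and not without control replicate 1, control replicate 2 or PELP1-KD replicate 3 (adjusted p = 0.0951, 0.149 and 0.233). The serotonin transporter SLC6A4 rose from 352, 331 and 342 to 508, 511 and 555 normalized reads, or 1.54-fold (log2 fold change 0.62, SE 0.07, adjusted p = 5.48e-07). SLC6A6, the taurine transporter, rose from 8.70 ± 0.130 to 11.0 ± 0.105 RPKM (log2 fold change 0.34, SE 0.04, adjusted p = 7.17e-07). SLC6A16, an orphan of the family, was higher by 0.49 (SE 0.13, adjusted p = 0.00487). SLC6A13, the GAT2 carrier of GABA and taurine, was higher by 0.52 (SE 0.20, adjusted p = 0.0368) at under 1 RPKM in both groups. SLC6A9, the glycine transporter GLYT1, was called higher at 0.22 (adjusted p = 0.0432) although its groups overlapped, with 276, 315 and 306 normalized reads in control and 314, 344 and 388 in PELP1-KD. Neither call held in DESeq2 (adjusted p = 0.154 for SLC6A13 and 0.127 for SLC6A9), and that of SLC6A13 was also lost with no filter on low counts (adjusted p = 0.0508). Leaving out control replicate 1, control replicate 2, PELP1-KD replicate 1 or PELP1-KD replicate 3 took the call from SLC6A13 (highest adjusted p = 0.108), and leaving out control replicate 1, control replicate 3, PELP1-KD replicate 2 or PELP1-KD replicate 3 took it from SLC6A9 (highest adjusted p = 0.219). SLC6A11, the GABA carrier GAT3, was the most abundant of the family, with 1878, 1880 and 1830 normalized reads in control and 1677, 1761 and 1878 in PELP1-KD. These overlapped and were not called (log2 fold change -0.07, adjusted p = 0.219), but were called without PELP1-KD replicate 3 (-0.12, adjusted p = 0.0304). SLC6A12, which carries betaine and GABA (-0.18, 95% interval -0.45 to 0.08), and SLC6A15, a carrier of branched-chain amino acids and proline (-0.47, -1.41 to 0.47), were not called.

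**Figure D4:**
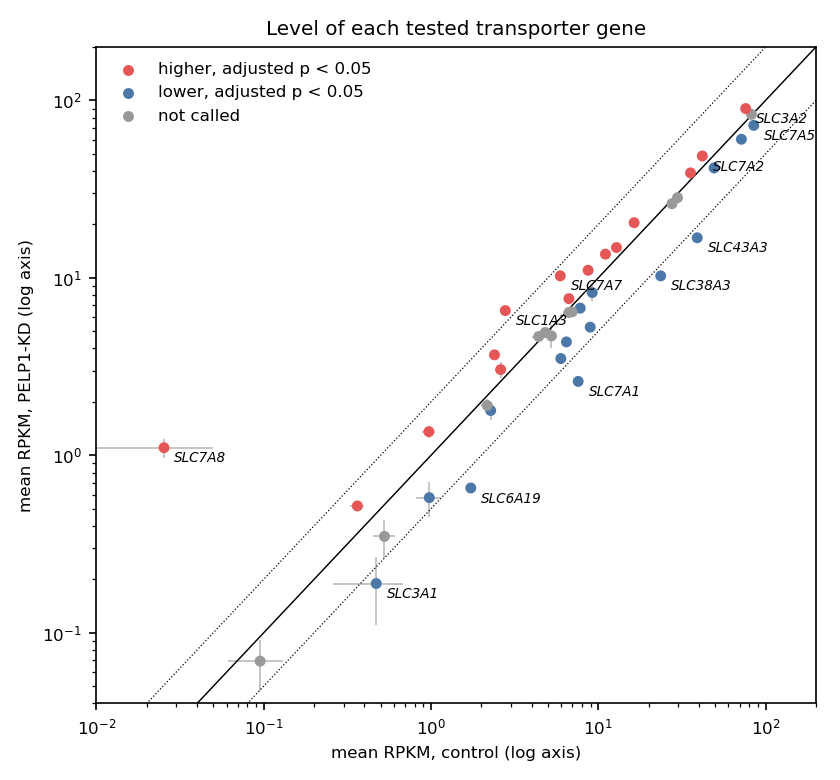
Mean RPKM of each of the 41 tested transporter genes in control (horizontal, log axis) against PELP1-KD (vertical, log axis), with the SD of 3 libraries as bars, the line of equal level drawn solid and 2-fold changes dotted. SLC3A2 and SLC7A5 sit at the top right on either side of the solid line, SLC43A3, SLC38A3, SLC7A1, SLC6A19 and SLC3A1 below the lower dotted line, and SLC7A8 far to the left.

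The 10 genes with the highest mean RPKM over the 6 libraries of both groups were, in descending order, SLC3A2, SLC43A1, SLC7A5, SLC1A5, SLC38A2, SLC7A2, SLC38A1, SLC6A11, SLC43A3 and SLC38A10. SLC43A3 was the only one of these 10 that passed the 2-fold threshold. In control, SLC7A5 (85.0 ± 4.05 RPKM) and SLC43A1 (82.3 ± 0.404) did not differ beyond their spread and lay above SLC3A2 (76.1 ± 0.580). In PELP1-KD, SLC3A2 (90.0 ± 3.62) and SLC43A1 (83.5 ± 3.99) came first, ahead of SLC7A5 (72.4 ± 1.80). The RPKM of all 59 genes summed to 716, 713 and 716 in control and to 667, 678 and 680 in PELP1-KD. The sum was lower in every PELP1-KD library than in any control library (p = 0.1, two-sided exact permutation test, the smallest it can give). The means differed by -40.3 RPKM. The sum takes in genes that rose and genes that fell, among them SLC43A3, the purine nucleobase carrier, which fell from 39.0 to 16.8 RPKM.

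The genes that were not tested had few reads or none. SLC1A7 had 4 to 7 reads in each library, and SLC1A2, the main glutamate transporter of brain, had 0, 3 and 0 reads in control and 6, 4 and 1 in PELP1-KD. SLC6A3 had 0, 2 and 3 reads in control and 0 in each PELP1-KD library. SLC7A4, SLC6A20, SLC38A8 and SLC7A3 had at most 2 reads in any library. SLC6A2, SLC6A5, SLC6A7, SLC6A17, SLC6A18, SLC1A6, SLC7A13, SLC7A14, SLC36A2 and SLC36A3 had 0 reads in all 6 libraries. Several of these are carriers of neurons, kidney or gut.

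Several transporter genes lie side by side on a chromosome, and neighbours did not always move alike. SLC7A7 and SLC7A8 are 305483 bases apart on chromosome 14, and both rose (0.79 and 5.40 on the log2 scale). SLC43A3 and SLC43A1, 56950 bases apart on chromosome 11, had -1.22 and 0.02. On chromosome 12, SLC38A1 (0.13) and SLC38A2 (-0.24) are separated by 88762 bases, with SLC38A4 (-0.77) a further 391898 bases away, and SLC6A12 (-0.18) and SLC6A13 (0.52) by 6417 bases. SLC6A18, which had 0 reads throughout, lies 239 bases from SLC6A19. No transporter gene shared exon bases on its own strand with another gene of the hg19 annotation. Of the near-identical copies of SLC7A5, SLC7A5P1 and SLC7A5P2 had log2 fold changes of -0.15 and 0.36 and were not called. SLC7A5 held part-reads, which the counting gives to reads with several matches or genes, in 5 libraries, as did SLC3A2 and SLC7A2. SLC43A1, SLC38A1, SLC38A2 and SLC6A8 held them in 3 libraries, and some other transporter genes in fewer. How many reads were shared in this way was not measured, so how far these values are less certain is not known.

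Promoter windows, from 250 bases before to 50 bases after a transcription start, were taken from RefSeq (GRCh38.p14). They were available for 44 of the 59 genes. Each was searched on both strands for TGATGNAA, the core of the element bound by C/EBP and ATF factors when amino acids are short, and no other motif was searched. The letters occurred in 3.62% of 35116 windows and at 4.46% of 27305 genes. Of the 33 tested transporter genes with a window, 6 held them, in 6 of 54 windows: SLC7A1, SLC1A3, SLC1A4, SLC1A5, SLC38A1 and SLC3A2. Each of these except SLC7A1 also had a window without a match, and for SLC1A5 the match lay in its most downstream window. All 6 were called, beside 30 of all 41 tested transporter genes and 53.6% of all tested genes. Of the 6, SLC7A1, SLC1A4 and SLC1A5 were lower and SLC1A3, SLC38A1 and SLC3A2 higher. Whether the letters had a part in these changes was not tested. The promoters of the 4 genes with a window that changed at least 2-fold are shown to give their sequence, from 250 bases before the start to 30 bases after it, with the letters searched in capitals. The SLC7A8 window is the one of its 4 with the most upstream start, at chr14:23183631-23183910 of GRCh38.p14 on the minus strand, and none of the 4 held the letters. SLC1A3 is shown at chr5:36596338-36596617 on the plus strand, the one of its 3 windows with a match, at position -220. SLC7A1 is shown at chr13:29595659-29595938 on the minus strand, with the match at position 8 after the start. SLC6A19 is shown at chr5:1201345-1201624 on the plus strand, and its window held no match. Counts per gene do not tell which start was used.
SLC7A8: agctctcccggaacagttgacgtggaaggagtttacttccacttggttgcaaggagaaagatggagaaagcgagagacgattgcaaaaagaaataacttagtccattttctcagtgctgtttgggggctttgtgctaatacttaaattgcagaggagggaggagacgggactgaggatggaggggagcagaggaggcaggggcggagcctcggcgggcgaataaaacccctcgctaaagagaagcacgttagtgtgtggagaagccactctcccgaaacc
SLC1A3: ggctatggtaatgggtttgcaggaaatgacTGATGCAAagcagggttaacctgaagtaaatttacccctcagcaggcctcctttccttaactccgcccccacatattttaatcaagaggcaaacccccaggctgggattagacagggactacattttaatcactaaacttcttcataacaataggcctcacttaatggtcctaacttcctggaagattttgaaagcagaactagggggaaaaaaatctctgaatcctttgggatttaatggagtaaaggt
SLC7A1: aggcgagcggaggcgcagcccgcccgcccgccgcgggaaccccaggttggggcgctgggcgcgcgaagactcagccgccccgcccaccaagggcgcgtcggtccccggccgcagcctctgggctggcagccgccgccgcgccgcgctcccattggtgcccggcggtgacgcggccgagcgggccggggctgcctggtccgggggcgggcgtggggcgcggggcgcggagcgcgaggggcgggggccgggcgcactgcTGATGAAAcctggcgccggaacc
SLC6A19: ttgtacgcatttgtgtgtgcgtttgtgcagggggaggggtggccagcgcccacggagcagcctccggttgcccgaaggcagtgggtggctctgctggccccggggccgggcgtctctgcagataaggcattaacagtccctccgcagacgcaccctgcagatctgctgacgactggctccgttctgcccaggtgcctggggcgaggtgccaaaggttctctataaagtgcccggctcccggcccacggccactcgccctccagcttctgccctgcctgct

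For the other genes with a match, a short stretch around it is shown in the direction of transcription, so that a match on the opposite strand reads as TTNCATCA. SLC1A4 is on the plus strand at chr2:64989381-64989410, SLC1A5 on the minus strand at chr19:46784893-46784922, SLC38A1 on the minus strand at chr12:46266502-46266531, and SLC3A2 on the plus strand at chr11:62881725-62881748, where the window ends.
SLC1A4: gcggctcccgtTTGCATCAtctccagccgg
SLC1A5: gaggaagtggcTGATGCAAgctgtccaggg
SLC38A1: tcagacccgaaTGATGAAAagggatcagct
SLC3A2: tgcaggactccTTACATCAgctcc

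Other genes of amino acid handling were described from 4 lists, whose calls stand beside the 53.6% called among all tested genes. The share called was 80.8% for the amino acid response and 72.2% for the enzymes of glutamine and glutamate. It was 53.6% for lysosomal amino acid sensing and 52.9% for the other carriers, near the share of all tested genes. These lists too were chosen with earlier results of these data known. Of 26 targets and factors of the amino acid response, 7 were higher and 14 lower, with a median log2 fold change of -0.11. NUPR1, a stress-induced chromatin protein (log2 fold change -2.17), CHAC1, which degrades glutathione (-1.19), and PYCR1, an enzyme of proline synthesis (-0.64), fell most, and the transcription factor CEBPB (0.58), the lipoprotein receptor VLDLR (0.49) and the secreted glycoprotein STC2 (0.36) rose most. Of 18 tested enzymes of glutamine and glutamate metabolism, 12 were lower and 1, the glutathione synthetase GSS (0.23), was higher, with a median of -0.17. Alanine aminotransferase GPT (-1.89), GMPS, which makes GMP with glutamine (-0.81), and glutamate dehydrogenase GLUD2 (-0.50) were the furthest below control. Of 28 genes of lysosomal amino acid sensing, 10 were higher and 5 lower with a median of 0.07. FNIP2 (0.46) and FLCN (0.42), which act together on the Rag GTPases, and RRAGD (0.41), one of these GTPases, rose most. WDR24 (-0.50), NPRL3 (-0.41) and SESN3 (-0.33), which act upstream of them, fell most. The directions did not follow these roles throughout. Among the other Rag GTPases, RRAGC rose (0.25), RRAGA fell (-0.29) and RRAGB was not called, and DEPDC5, also upstream, rose (0.35). Of 17 tested carriers of amino acids outside the 7 families, 6 were higher and 3 lower. SLC15A3, a lysosomal carrier of histidine and small peptides, rose from 71.5, 82.4 and 86.8 to 455, 456 and 505 normalized reads (log2 fold change 2.56, SE 0.10, adjusted p = 4.53e-14). SLC25A18, a mitochondrial glutamate carrier (0.90), also rose. SLC17A8, a vesicular glutamate carrier, was called higher (1.12) on few reads, with 10, 14 and 12 in control and 23, 27 and 20 in PELP1-KD. The mitochondrial carriers SLC25A12 (-0.82), SLC25A29 (-0.31) and SLC25A15 (-0.28) fell.

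**Figure D5:**
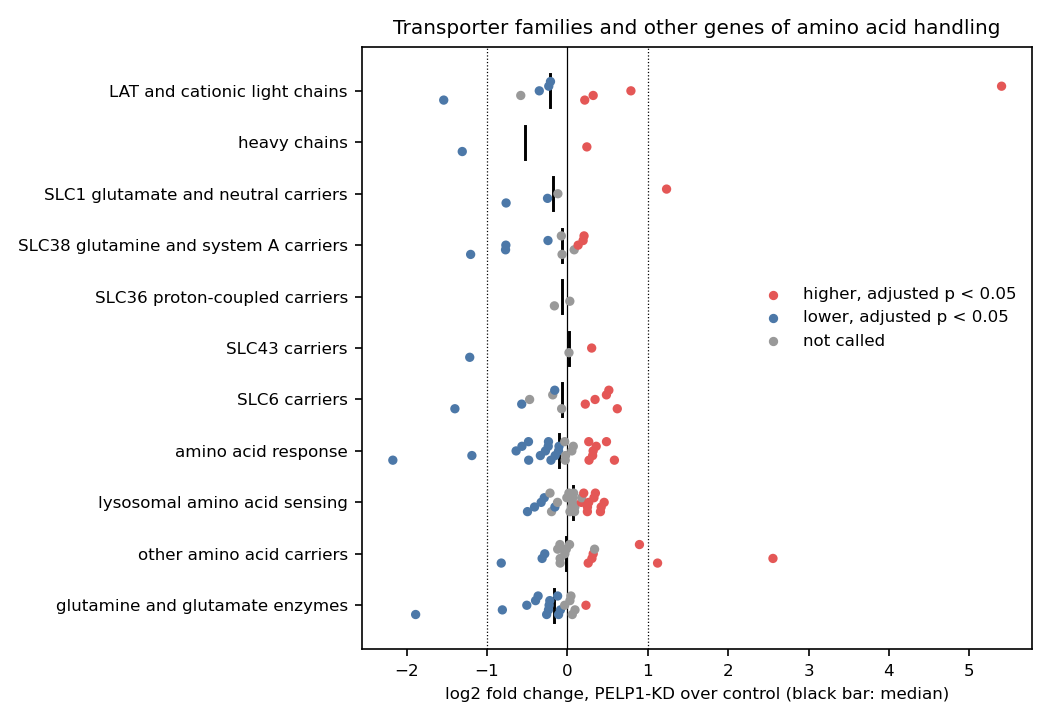
Log2 fold change in PELP1-KD over control of the tested genes of each transporter family and of the 4 lists of other genes, one point per gene, with the median of each group as a black bar. Red genes were higher and blue genes lower at an adjusted p below 0.05, and dotted lines mark a 2-fold change. Most groups hold both red and blue points, the SLC36 carriers hold neither, and the enzymes of glutamine and glutamate hold 12 blue points and 1 red one.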

How the data were processed

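The authors deposited estimated counts of reads per gene, one table per library. Per the file headers, featureCounts 1.5.0-p1 was run on UCSC hg19 genes with strand taken into account, kept reads of mapping quality 2 or more, and divided reads with several matches or genes among them. The methods name TopHat2 and HTSeq and the labels HISAT2. The labels also conflict on RNA extraction, single or paired reads, and mRNA selection or ribosomal RNA removal. Samples were grouped by treatment label. Counts were rounded and fitted over all genes in edgeR 4.0.16 (filterByExpr, TMM, robust glmQLFit, glmQLFTest, R 4.3.3) with Benjamini-Hochberg adjustment, at 0.05 and a log2 fold change of 1. The SE was taken as the size of the log2 fold change divided by the root of the F statistic, and 95% intervals use 4 degrees of freedom. RPKM used the TMM-scaled library size and the deposited exon length. The median SE was 0.063.

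The members and lists were chosen with earlier results of these data known. Values in every library were given for members past both thresholds, the 10 most abundant, SLC3A1, SLC3A2 and its light chains, and for each other list the 3 called genes furthest from 0 on either side were named. Lists of cell type markers and of near-identical copies were also taken. A marker and an untested member are not reported here. Over 6370 genes with a log2 CPM above 5, deviations from the group mean of libraries with the same replicate number correlated at 0.336, 0.247 and 0.666, so the numbers of the labels were taken as pairs, in the alternative with a block. Control replicate 2 with PELP1-KD replicate 1 gave 0.418, above the 0.336 of the libraries numbered 1, so the pairs numbered 1 and 2 are uncertain. Replicates differed by more than sampling noise (chi-square per degree of freedom 1.94 to 7.02). Alternatives were DESeq2 1.42.0, DESeq2's size factors, upper-quartile factors, total reads only, no filter, at least 10 reads in every library, at least 1 RPKM, an adjusted p below 0.01, glmTreat, the block, and each library left out. The same alternatives for the other lists, and other scalings for the light chains, were chosen after seeing the data. The scripts were tested on simulated counts.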

Additional observations from a re-analysis of the deposited data

How the results depend on the processing

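Leaving out 1 library at a time gave 26 to 29 transporter genes called, 6 to 7 of them at least 2-fold changed, and a median log2 fold change of -0.109 to -0.065. DESeq2 called 25 of 49 transporter genes tested. With at least 10 reads required in every library, 1 transporter gene was at least 2-fold higher, since SLC7A8 was not tested, nor was SLC3A1, and a minimum of 1 RPKM left SLC3A1, SLC38A11 and SLC6A13 untested among the called genes. The log2 fold change of PELP1 was -0.083 with the replicate block (adjusted p = 0.0106) and -0.105 to -0.040 with 1 library left out, and was called without PELP1-KD replicate 3 (adjusted p = 0.0180). The block changed the call of 1 transporter gene, SLC38A10, and of no other. Signs turned for 3 genes that were not called: with 1 library left out, SLC36A1 ranged from -0.0040 (without PELP1-KD replicate 3) to 0.054, SLC43A1 from -0.010 (without the same library) to 0.057, and SLC38A9 from -0.121 to 0.0062 (without control replicate 1). Without PELP1-KD replicate 3, SLC38A10 and SLC6A11 were called. The cause was not tested. The 7 genes that were still tested and lost their call under some alternative were SLC38A1, SLC38A6, SLC3A1, SLC6A13, SLC6A14, SLC6A9 and SLC7A10. Other scalings moved the median of all genes by less than 0.02 on the log2 scale. Depth limited SLC7A8, SLC3A1 and the untested genes, whose reads were few.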
